A study of Mus musculus with 12 samples.

Results

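The 10 genes described here encode acute-phase proteins of the mouse liver, namely the serum amyloid A genes Saa1, Saa2 and Saa3, the orosomucoid genes Orm1, Orm2 and Orm3, and Lcn2, Hp, Serpina3n and Apcs. They were chosen by gene symbol among the 21683 rows of the table of estimated counts, and all 10 were among the 12459 genes that passed the filter on low counts. RNA had been sequenced from the livers of 12 F1 males of the C57BL/6J strain. The paternal control group held 6 livers from sons of sires gavaged with corn oil vehicle. The paternal DCHP group held 6 livers from sons of sires gavaged daily with dicyclohexyl phthalate (DCHP), a phthalate plasticizer, at 10 mg/kg body weight. Sires were dosed for 4 weeks from 8 weeks of age and then mated with unexposed dams of the same strain, so no F1 animal was dosed itself. All 12 F1 males shared a wild-type genotype and a high-fat diet for 9 weeks from weaning at 3 weeks of age, and their age at collection was 12 weeks, after 6 hours of food restriction. No label names the sire or litter of an animal, and p-values therefore refer to the spread among these 12 animals, whatever their litters.

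The acute-phase response is a change in the proteins that hepatocytes secrete into plasma during infection, injury or inflammation. Interleukin-6, which signals through its receptor, Jak kinases and Stat3, acts together with interleukin-1 and tumour necrosis factor, which signal through NF-kB, and with transcription factors of the C/EBP family. Serum amyloid A proteins travel on high-density lipoprotein, orosomucoids are glycoproteins that bind small lipophilic molecules, lipocalin 2 (Lcn2) binds bacterial iron carriers, haptoglobin (Hp) binds free haemoglobin, Serpina3n inhibits serine proteases, and serum amyloid P component (Apcs) is the pentraxin that serves as a major acute-phase reactant in mice. Saa1 and Saa2 are lowly expressed in resting liver and are among the most inducible transcripts of the response, whereas Hp and Orm1 are already abundant at rest.

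Estimated counts summed to 23794728 in the shallowest and 30445338 in the deepest library, with 5.22% to 8.03% from mitochondrial genes. Hepatocyte markers had summed levels between 65920 and 92870 CPM (CPM are counts scaled to a common library size with TMM factors) in all 12 livers, which were labelled as liver. The liver of paternal DCHP replicate 4, called DCHP 4 below, stood apart for most of the 10 genes, and results that rest on it are given with and without it.

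The regulatory sequence next to these genes is shown first, because Saa1, Saa2 and Lcn2 had the widest spread among the DCHP livers, Saa3 is their near relative with a narrower one, and Apcs had the smallest p of the 10. The 250 bases before the annotated start were found for 8 of the 10 genes in the RefSeq promoter table of build GRCm38.p6. The windows below are those of Saa1 at chr7:46742981-46743230 (minus strand), Saa2 at chr7:46751583-46751832 (plus strand), Saa3 at chr7:46715677-46715926 (minus strand), Lcn2 at chr2:32387740-32387989 (minus strand) and Apcs at chr1:172895055-172895304 (minus strand), each read 5′ to 3′ towards the gene. Capitals mark matches to TTGCNNAA, a C/EBP motif, in Saa1, Saa2, Saa3 and Lcn2, and in Apcs matches to TTCNNNGAA, a STAT motif, and to CTGGGAA, a motif of acute-phase promoters that Stat3 binds.
Saa1: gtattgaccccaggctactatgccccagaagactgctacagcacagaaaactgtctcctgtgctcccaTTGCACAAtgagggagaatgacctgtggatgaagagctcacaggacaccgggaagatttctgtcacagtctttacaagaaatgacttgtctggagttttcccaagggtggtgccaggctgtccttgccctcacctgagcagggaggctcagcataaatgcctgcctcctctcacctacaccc
Saa2: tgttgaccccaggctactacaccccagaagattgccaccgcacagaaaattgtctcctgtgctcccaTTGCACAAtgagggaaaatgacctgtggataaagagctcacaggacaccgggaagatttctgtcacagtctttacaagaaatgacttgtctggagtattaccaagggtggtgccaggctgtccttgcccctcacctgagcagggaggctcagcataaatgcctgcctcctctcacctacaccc
Saa3: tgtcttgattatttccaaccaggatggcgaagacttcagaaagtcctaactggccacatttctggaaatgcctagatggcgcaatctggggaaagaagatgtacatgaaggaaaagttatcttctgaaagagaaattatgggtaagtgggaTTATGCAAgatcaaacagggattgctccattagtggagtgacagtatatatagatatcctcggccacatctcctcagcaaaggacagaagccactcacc
Lcn2: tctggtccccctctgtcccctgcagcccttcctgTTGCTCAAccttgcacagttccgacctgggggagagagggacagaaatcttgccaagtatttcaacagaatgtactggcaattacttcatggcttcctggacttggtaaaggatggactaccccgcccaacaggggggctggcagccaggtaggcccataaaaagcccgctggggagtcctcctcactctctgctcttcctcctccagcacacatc
Apcs: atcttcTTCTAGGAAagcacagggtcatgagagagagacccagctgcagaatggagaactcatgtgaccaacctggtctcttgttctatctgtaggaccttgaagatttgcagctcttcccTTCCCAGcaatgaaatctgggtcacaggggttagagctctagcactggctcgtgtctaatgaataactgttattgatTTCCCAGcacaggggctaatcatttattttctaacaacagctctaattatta

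Both strands were searched, so a match on the other strand appears as its reverse complement. TTGCNNAA was present before Saa1, Saa2, Saa3, Lcn2, Orm2 and Orm3, that is in 6 of the 8 windows, and in 9.56% of all 32851 promoter windows of the same length. In Saa1 the match began 182 bases before the start and in Saa2 183 bases before it, with the same letters in both. CTGGGAA was found at 2 places before Apcs and TTCNNNGAA at 1, against 9.1% and 7.02% of all promoters, and these matches did not overlap each other. GGANTTTCC, an NF-kB motif, was in none of the 8 windows and in 1.07% of all promoters. Only this exact form was searched for NF-kB, so NF-kB sites of another form were not covered. The Serpina3n window held no match to any of the 4 motifs. The windows of Saa1 and Saa2 were identical at 94.8% of aligned positions and those of Orm2 and Orm3 at 85.9%, while Saa3 was identical to Saa1 at 52.2%.

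The genes lie on 6 chromosomes. Saa3, Saa1 and Saa2 are neighbours on chromosome 7 between positions 46711998 and 46754313 of build mm10, with Saa4 between Saa3 and Saa1, and Orm1, Orm3 and Orm2 follow each other on chromosome 4 between 63344560 and 63365878. Their principal transcripts are alike, at 93.9% identity for Saa1 and Saa2 and 91.0% for Orm1 and Orm2. Of all 50-base windows in the transcript, 14.8% in Saa1, 13.3% in Saa2, 20.4% in Orm1, 22.7% in Orm2 and 6.9% in Serpina3n also occurred in a transcript of another gene, against 0% in Lcn2, Hp and Apcs. How such reads were assigned is not given in the sources used here, so values of single Saa, Orm and Serpina3 genes are uncertain.

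Per kilobase of principal transcript, Hp had the highest level in the paternal control livers, at 1630 ± 144.9 CPM per kb (mean ± SD, n = 6), followed by Orm1 at 465.3 ± 50.9 and Serpina3n at 121.7 ± 14.7. Saa1 stood at 89.6 ± 52.4 CPM per kb, Saa2 at 43.4 ± 38.5, Apcs at 24.5 ± 3.96, Saa3 at 11.4 ± 8.84, Orm2 at 9.08 ± 3.89, Lcn2 at 6.00 ± 2.98 and Orm3 at 5.37 ± 3.73. Over the 6 controls the ranges of Hp, Orm1 and Serpina3n did not overlap each other, while that of Serpina3n, from 102.1 to 139.3 CPM per kb, lay within that of Saa1, from 22.2 to 182.1. From Serpina3n down to Orm3, the ranges of all neighbours in the order overlapped. In DCHP 4 the order changed, as Saa1 reached 3175 and Saa2 2024 CPM per kb, behind Hp at 4820 and ahead of Orm1 at 915.0.

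Paternal DCHP livers had higher mean levels of all 10 genes, and the increase passed the test for Apcs, Serpina3n and Saa1. A gene was called at a Benjamini-Hochberg adjusted p (FDR) under 0.1 in the edgeR quasi-likelihood test over all 12459 genes together with a fold change above 1.5. Thus 3 of the 10 genes were called higher and 0 lower, where 0.963% of all tested genes were called higher, 0.313% lower and 1.28% in either direction. DESeq2 called Lcn2, Serpina3n and Apcs, or 3 of the 10, against 2.62% of all genes. It gave no p for Saa1 and Saa2, so neither could be called by it. With limma-voom Apcs was called, or 1 of the 10, against 0.939% of all genes. The log2 fold change was positive for 10 of 10 genes, against 51.5% of all tested genes, and its median was 0.70 against 0.01 over all genes. Genes of this and the other lists were measured in the same livers and are not independent, so such counts are description only. No gene of the 10 had all DCHP livers above all controls, a separation found for 0.907% of tested genes, and none had all of them below, as 1.24% of tested genes did. Levels in bulk tissue do not tell more RNA per hepatocyte apart from more hepatocytes.

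**Figure D1:**
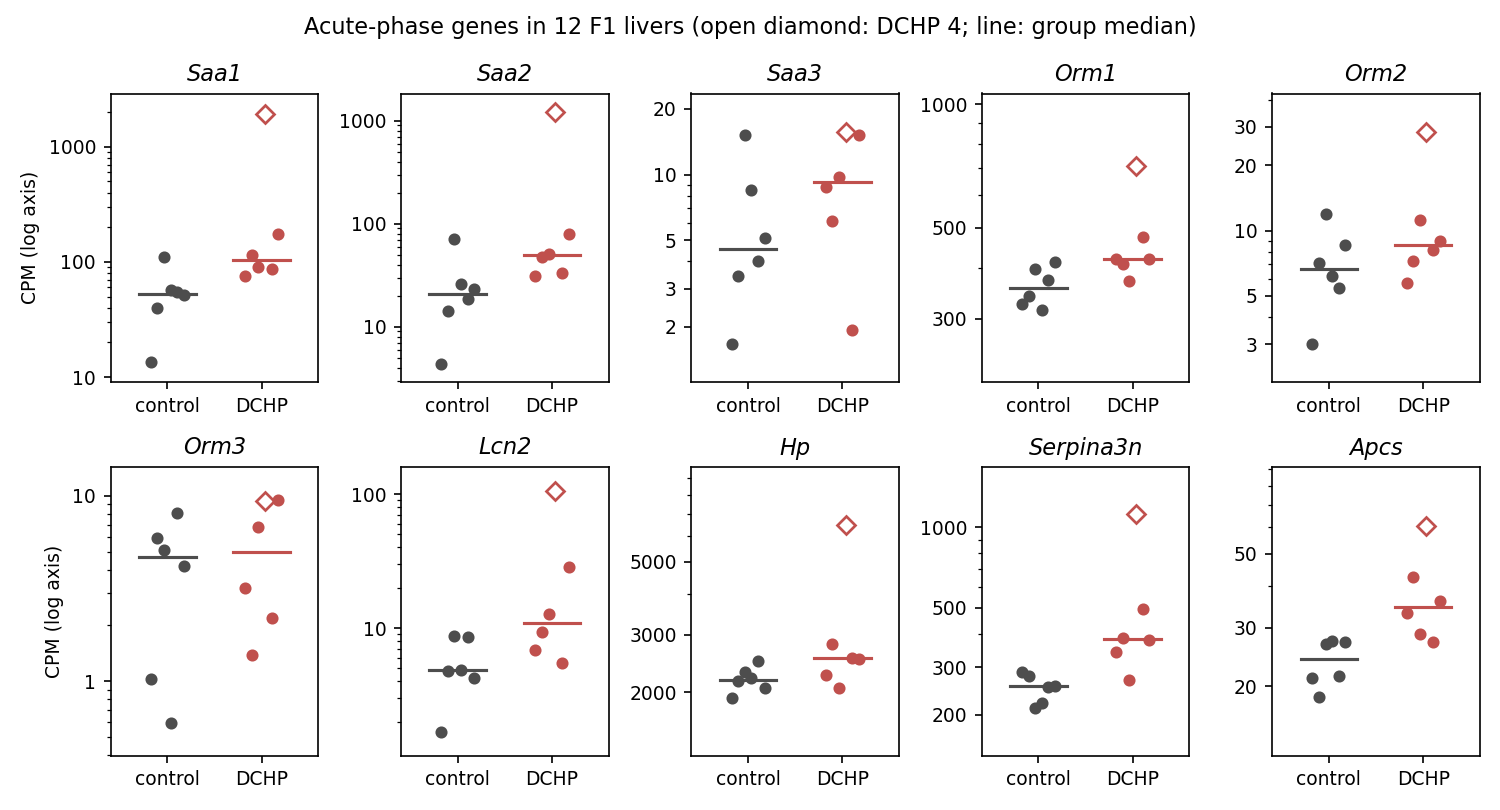
Level of each of the 10 acute-phase genes in CPM on a log axis, with 1 point per liver, 6 paternal control and 6 paternal DCHP, the group median as a line and DCHP 4 as an open diamond. DCHP 4 is the highest liver for 9 genes, with 1933 CPM of Saa1, and is just below DCHP 6 for Orm3.

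Among the amyloid A genes, Saa1 was measured at 13.5, 53.1 and 110.9 CPM in the control livers (lowest, median and highest, n = 6) and at 75.4, 103.5 and 1933 CPM in the DCHP livers. All 6 DCHP livers lay above the control median and 3 above the highest control, and 5 of 6 controls lay below every DCHP liver. It had a log2 fold change of 2.92 ± 0.85 (SE, edgeR adjusted p = 0.0996). The other 5 DCHP livers lay between 75.4 and 173.4 CPM, and without DCHP 4 the log2 fold change was 1.00 ± 0.37 (edgeR adjusted p = 0.188).

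Saa2, the close copy of Saa1, was measured at 4.34, 20.9 and 71.4 CPM in the controls and at 30.9, 49.2 and 1227 CPM in the DCHP livers. Again 5 of 6 controls lay below every DCHP liver, and control 3 was the exception for both genes. The log2 fold change of Saa2 was 3.22 ± 1.00 (SE) with an edgeR adjusted p = 0.115, so it was not called, and it was 0.90 ± 0.49 without DCHP 4 (adjusted p = 0.344). The proportion of the 2 genes varied, with Saa2 at 0.32 to 0.64 of the Saa1 level in CPM. It was lowest in control 1 (0.321) and highest in control 3 (0.643) and DCHP 4 (0.634). When the counts of Saa1 and Saa2 were added, which does not depend on how reads were split between them, the log2 fold change was 3.03 ± 0.89 and the edgeR adjusted p = 0.103, so the sum was not called. Saa1 was called without DCHP 1, DCHP 3 or DCHP 6 and was not called when any 1 of the other 9 livers was left out, and Saa2 was called without DCHP 6 alone.

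Saa3, which macrophages and adipocytes also express, did not follow Saa1 and Saa2 in size. It was measured at 1.68, 4.57 and 15.2 CPM in the controls and at 1.95, 9.26 and 15.7 CPM in the DCHP livers, and the groups overlapped over most of their range. Saa3 had a log2 fold change of 0.60 ± 0.50 (SE, edgeR adjusted p = 0.529). In DCHP 4, Saa3 stood at 0.00811 of the Saa1 level in CPM, whereas in the other 11 livers this ratio lay between 0.0225 and 0.149.

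The orosomucoids showed small differences. Orm1, which made up most of the orosomucoid signal, was measured at 315.3, 356.2 and 412.8 CPM in the controls and at 371.5, 420.7 and 709.1 CPM in the DCHP livers. All 6 DCHP livers lay above the control median and 4 above the highest control. For Orm1 the log2 fold change was 0.37 ± 0.14 (SE), with an edgeR adjusted p = 0.174, and 0.23 ± 0.09 without DCHP 4. Orm2 was measured at 3.01, 6.66 and 11.9 CPM in the controls and at 5.75, 8.55 and 28.5 CPM in the DCHP livers. Only DCHP 4 exceeded the highest control for Orm2. The log2 fold change of Orm2 was 0.72 ± 0.38 (SE, edgeR adjusted p = 0.321). Orm3 ranged from 0.596 to 8.06 CPM in the controls and from 1.38 to 9.53 CPM in the DCHP livers, with only 3 DCHP livers above the control median. Its log2 fold change was 0.37 ± 0.57 (SE, edgeR adjusted p = 0.755), so its direction was not resolved. The added counts of the 3 genes gave 0.39 ± 0.14 with an edgeR adjusted p = 0.165, and Orm2 was between 0.91% and 3.82% of that sum, its highest share being in DCHP 4.

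Lcn2 was measured at 1.68, 4.85 and 8.75 CPM in the controls and at 5.46, 10.98 and 106 CPM in the DCHP livers. DCHP 4 was highest and DCHP 6 followed with 28.4 CPM, all 6 DCHP livers lay above the control median and 4 above the highest control. With all 12 livers the log2 fold change was 2.34 ± 0.69 (SE) with an edgeR adjusted p = 0.103, and 1.19 ± 0.44 without DCHP 4 (adjusted p = 0.183). It was called when DCHP 1 or DCHP 2 was left out, when only genes with at least 1 CPM in at least 6 libraries were tested (edgeR adjusted p = 0.097), and by DESeq2 (adjusted p = 0.0329, range 0.0329 to 0.345 over its alternatives). Haptoglobin (Hp), the most abundant of the 10 transcripts, was measured at 1924, 2184 and 2488 CPM in the controls and at 2067, 2543 and 6483 CPM in the DCHP livers. Its log2 fold change was 0.51 ± 0.23 (SE, edgeR adjusted p = 0.260) and became 0.17 ± 0.10 without DCHP 4.

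Serpina3n and Apcs had the narrowest control ranges together with Hp and Orm1, and both were called higher. Serpina3n was measured at 210.8, 254.9 and 287.6 CPM in the controls and at 269.2, 382.8 and 1119 CPM in the DCHP livers. In 5 of 6 DCHP livers it exceeded the highest control, with DCHP 3 as the exception. Its log2 fold change was 0.99 ± 0.28 (SE, edgeR adjusted p = 0.0921). Without DCHP 4 it was 0.58 ± 0.14 with an edgeR adjusted p = 0.0836, which passed the FDR threshold and missed the fold threshold. Apcs was measured at 18.6, 24.1 and 27.3 CPM in the controls and at 27.2, 34.7 and 60.8 CPM in the DCHP livers. Its groups overlapped only through DCHP 5, at 27.2 CPM. For Apcs the log2 fold change was 0.68 ± 0.18 (SE, edgeR adjusted p = 0.0807), and 0.51 ± 0.13 without DCHP 4 (adjusted p = 0.104). Serpina3n was called without DCHP 1, DCHP 3 or DCHP 6 and Apcs without DCHP 1, DCHP 3, DCHP 5 or DCHP 6, and neither was called when any 1 of the other livers, controls included, was left out.

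**Figure D2:**
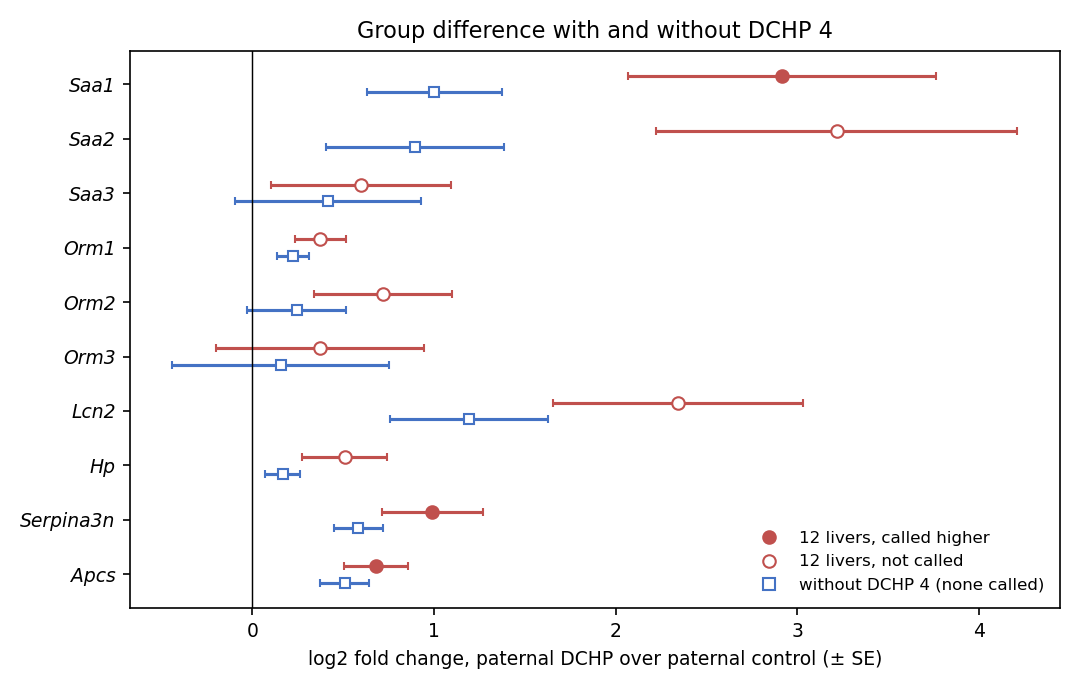
Log2 fold change of paternal DCHP over paternal control for the 10 genes with its SE, from 12 livers (circles, filled where called) and from 11 livers without DCHP 4 (squares). All 20 estimates are above 0, Saa1 drops from 2.92 to 1.00 without DCHP 4 and no gene is called without it.

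In the 11 livers without DCHP 4, 0 of the 10 genes were called by edgeR, where 69 genes, or 0.549% of 12577 tested, were called in all. DESeq2 and limma-voom also called 0 of the 10 in these livers, against 2.28% and 0.501% of all tested genes. Saa1, Lcn2, Serpina3n, Apcs and Orm1, or 5 of the 10, had an unadjusted edgeR p under 0.05, as did 18.6% of all tested genes. The fold of the means was then 1.99 for Saa1, 1.84 for Saa2, 2.28 for Lcn2, 1.49 for Serpina3n, 1.41 for Apcs and at most 1.32 for the other 5 genes. Of all alternatives for these 10 genes, none turned the direction except for Orm3, at -0.041 without DCHP 4 and control 1 and at -0.28 without DCHP 4 and DCHP 6, both choices made after the data were seen.

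DCHP 4 differed from the other DCHP livers unequally across the 10 genes. Relative to the median of the other 5 DCHP livers it was 26.1-fold higher for Saa2, 21.2-fold for Saa1 and 11.4-fold for Lcn2, then 3.50-fold for Orm2, 2.95-fold for Orm3 and Serpina3n, 2.56-fold for Hp, and between 1.69-fold and 1.83-fold for Apcs, Saa3 and Orm1. Among all 12459 tested genes, Saa2, Saa1 and Lcn2 held ranks 1, 2 and 5 by this log ratio. The 10 genes together took 1.09% of the counts in DCHP 4, against 0.25% to 0.41% in the other 11 livers. At the low end, control 1 had the lowest Saa1, Saa2, Saa3, Orm2, Lcn2 and Hp of all 12 livers, with Saa1 at 13.5 CPM against a median of 54.9 CPM in the other 5 controls.

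**Figure D3:**
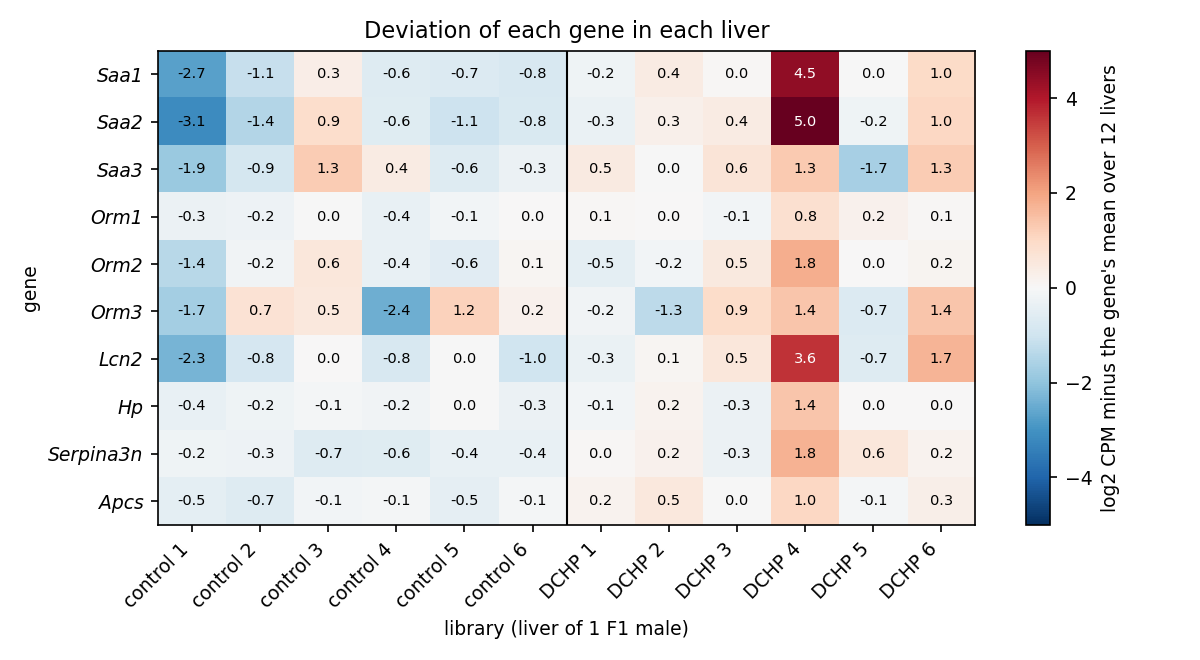
Log2 CPM (prior count of 2) of the 10 genes in 12 livers, 6 paternal control and 6 paternal DCHP, each as its difference from that gene's mean over all livers. DCHP 4 is above the mean for every gene, by 0.81 for Orm1 and 4.97 for Saa2, and control 1 is below it for every gene.

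Over the 12 livers with group means removed, the genes were compared with Saa1 on the log2 CPM scale, in a family of 9 correlations with permutation p-values. Saa2 followed Saa1 closely (Pearson r = 0.99, adjusted permutation p = 0.00045, and Spearman rho = 0.97, adjusted permutation p = 0.0009), and r was 0.947 without DCHP 4 and control 1, the livers farthest from the median of Saa1. Lcn2 also followed it (r = 0.932, adjusted permutation p = 0.00247, rho = 0.895, adjusted permutation p = 0.00112), with r = 0.74 without those livers. Raw permutation p-values of r were 5e-05 for Saa2 and 0.00055 for Lcn2. Serpina3n did not (r = 0.664, adjusted permutation p = 0.152, rho = 0.0909, adjusted permutation p = 0.787), and its r was -0.239 without those livers. For Orm1 r fell from 0.829 to 0.201 without those livers, with rho = 0.462 over 12 livers (adjusted permutation p = 0.174). For Hp r fell from 0.90 to 0.396, while rho was 0.846 (adjusted permutation p = 0.0118). Orm2, Apcs and Saa3 had rho of 0.776, 0.72 and 0.692 (adjusted permutation p = 0.013, 0.013 and 0.0247). Without those livers their r was 0.54, 0.56 and 0.683, against 0.903, 0.803 and 0.649 with all 12. Orm3 had r = 0.465 (adjusted permutation p = 0.143) and rho = 0.427 (0.2). Of 11433 other genes at a mean of at least 1 CPM, those most like the mean of the 10 after removal of group means were Sars2 (r = 0.956), Coq4 (0.918), Tmem192 (0.909), Plin2 (0.893) and Alg2 (0.892), given as a description over 12 livers. Without DCHP 4 their r lay between 0.773 and 0.903 and their ranks were 11, 26, 113, 179 and 103, and the 5 most alike genes were then Abi3bp (r = 0.948), Polg2, Mlkl, Lsp1 and Bhlhb9, which ranked between 858 and 4497 over all 12 livers, so the list depended on that liver. Neither set of 5 held a gene called between the groups.

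Other genes known to rise in the acute phase were also mostly above control. Of 35 listed genes 33 were tested, and 30 had positive log2 fold changes, against 51.5% of all tested genes. Of the 33, 3 were called higher and 0 lower, against 0.963% and 0.313% of all tested genes. The median log2 fold change was 0.33. The called genes were Fgl1, a hepatocyte-secreted fibrinogen-like protein, at 1.02 ± 0.24 (SE, edgeR adjusted p = 0.0661), the metallothionein Mt2 at 1.62 ± 0.40 (0.0701), and Steap4, a metalloreductase, at 1.5 ± 0.38 (0.074). DESeq2 called 6 of the list, against 2.62% of all tested genes, and limma-voom 2, against 0.939%. Saa4, the constitutive member of the amyloid A family, was measured between 235.7 and 513.2 CPM in the controls and between 285.3 and 1036 CPM in the DCHP livers, with a log2 fold change of 0.61 ± 0.28 (SE, edgeR adjusted p = 0.254). Crp, which is a weak acute-phase gene in mice, was at 0.20 ± 0.13 (edgeR adjusted p = 0.413). DCHP 4 was the highest liver for Fgl1 (286 CPM), Mt2 (613.9 CPM), Steap4 (896.2 CPM), Saa4 and Crp. Without DCHP 4, Mt2 was not called, while Fgl1 at 0.71 (edgeR adjusted p = 0.0795) and Steap4 at 0.93 (0.0796) were. All 3 lost the call without control 1, 3, 4, 5 or 6, with edgeR adjusted p of at most 0.152 over single left-out livers, and Steap4 also without DCHP 5.

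**Figure D4:**
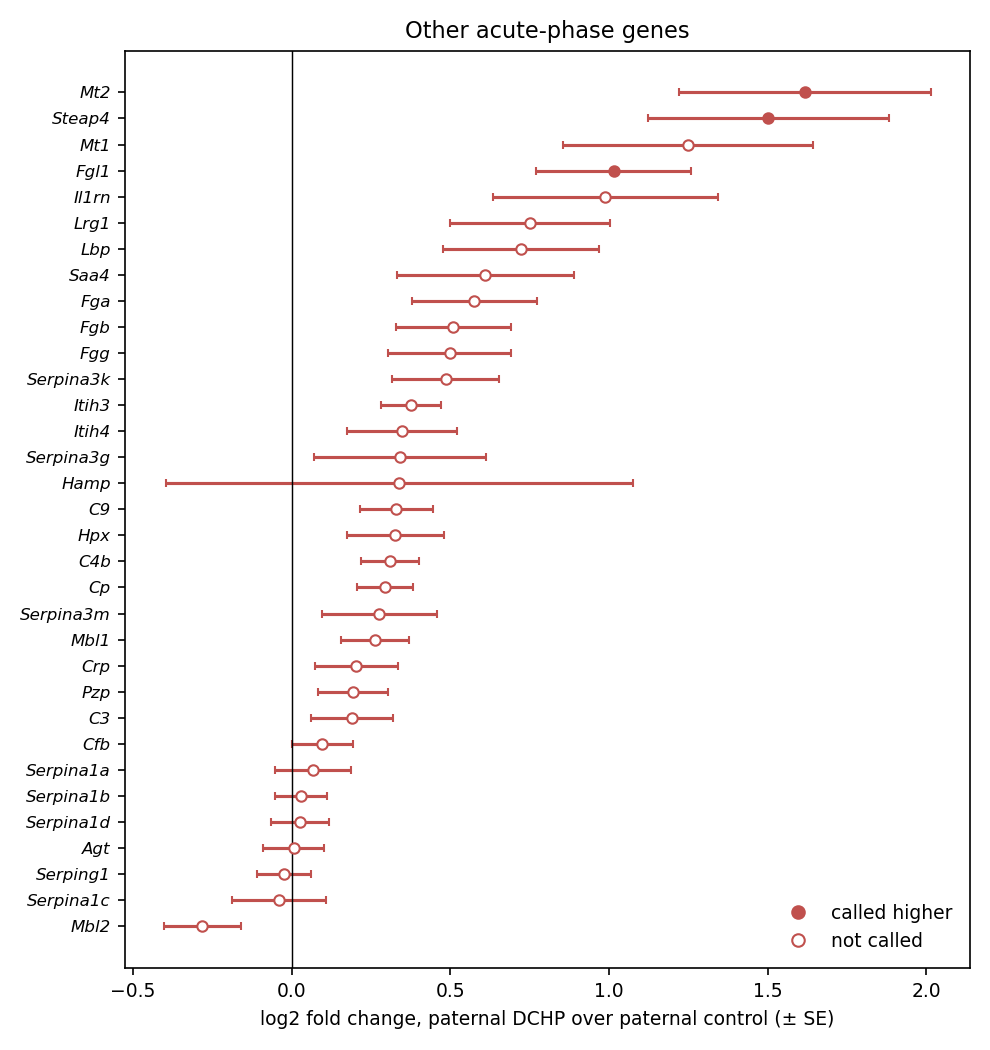
Log2 fold change of paternal DCHP over paternal control with its SE for the 33 tested acute-phase genes outside the 10, ordered by value and filled where called. Fgl1, Mt2 and Steap4 are called higher, and 30 of the 33 estimates are above 0.

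Of 12 genes known to fall in the acute phase, all were tested. Of these, 1 was called lower and 0 higher, against 0.313% and 0.963% of all tested genes, and the median log2 fold change was -0.03. Serpina6, which encodes corticosteroid-binding globulin, lay between 194.9 and 350 CPM in the controls and between 115.9 and 151 CPM in the DCHP livers, without overlap. Its log2 fold change was -1.09 ± 0.13 (SE, edgeR adjusted p = 0.00285), and it was called whichever liver was left out, at -1.07 without DCHP 4. In DCHP 4 it stood at 124.5 CPM, within the range of the other DCHP livers, unlike Saa1 and Saa2. All DCHP livers lay below all controls for 1.24% of tested genes.

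Among the cytokines, Il6, Tnf and Il22 were close to the limit of detection. Over 6 libraries each, Il6 had 2 counts in the controls and 9 in the DCHP livers, Tnf had 20 and 35, and Il22 had 0 in both, so the filter removed them. Of 17 cytokine and receptor genes 11 were tested and 0 were called by edgeR, DESeq2 or limma-voom. Of all tested genes, these tools called 1.28%, 2.62% and 0.939%. An unadjusted edgeR p under 0.05 was found for 5 of the 11, against 18.9% of all 12459 tested genes. Tnfrsf1b, a receptor for tumour necrosis factor, had a log2 fold change of 0.41 ± 0.12 (SE, edgeR adjusted p = 0.0921). Il1b was at 0.50 ± 0.56 (edgeR adjusted p = 0.652), and Il6ra, the interleukin-6 receptor, at -0.10 ± 0.24 (0.849).

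Of 20 transducers and transcription factors, all tested, 3 were called higher and 0 lower, against 0.963% and 0.313% of all tested genes. DESeq2 called 4 of them, against 2.62% of all tested genes, and limma-voom 2, against 0.939%. Their median log2 fold change was 0.17. Stat3 lay between 76.9 and 92.5 CPM in the controls and between 99.6 and 224.8 CPM in the DCHP livers, without overlap, and DCHP 4 was highest. Its log2 fold change was 0.83 ± 0.17 (SE, edgeR adjusted p = 0.0434), and 0.68 without DCHP 4 (adjusted p = 0.0795). Rel, an NF-kB subunit, was at 0.74 ± 0.16 (SE, edgeR adjusted p = 0.0535), also without overlap, from 5.35 to 7.87 CPM and from 8.54 to 16.8 CPM. All DCHP livers lay above all controls for 0.907% of tested genes. Socs3, the feedback inhibitor that Stat3 induces, lay between 3.48 and 9.37 CPM in the controls and between 5.84 and 34.9 CPM in the DCHP livers, at 1.54 ± 0.40 (SE, edgeR adjusted p = 0.0807). Socs3 was not called without DCHP 4 (adjusted p = 0.121), without DCHP 1 or DCHP 5, or without control 1, 3, 4, 5 or 6, Stat3 not without control 3, 4 or 6, and Rel not without control 3, 4, 5 or 6. For Stat3 and Rel the edgeR adjusted p was then at most 0.112, and for Socs3 at most 0.171. Of 12 receptors and partners of the 10 proteins, all tested, 0 were called by edgeR, against 1.28% of all tested genes. An unadjusted edgeR p under 0.05 was found for 3 of them, against 18.9%. Cd163, the macrophage receptor for haptoglobin bound to haemoglobin, had the smallest p, at 1.16 ± 0.35 (SE, edgeR adjusted p = 0.110). By DESeq2, Cd163 was called (adjusted p = 0.0186), the 1 called gene of the list, against 2.62% of all tested genes. With limma-voom 0 were called, against 0.939%.

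Markers of other cells were read beside these genes, because neutrophils also make Lcn2 and macrophages also make Saa3. The summed neutrophil markers lay between 3.78 and 8.96 CPM in the controls and between 8.39 and 14.9 CPM in the DCHP livers, with 12.9 CPM in DCHP 4. Only 4 of 13 neutrophil markers had enough counts to be tested. Of these, 1 was called higher and 0 lower, against 0.963% and 0.313% of all tested genes. This was S100a9 (log2 fold change 1.85 ± 0.53, edgeR adjusted p = 0.095), with 53 counts in the controls and 179 in the DCHP livers. It was not called when any 1 control or DCHP 1, 2, 4 or 5 was left out. The defining marker Ly6g had 0 counts in all 12 libraries, and Camp, Ltf and Ngp had 0 in the controls and 3, 13 and 20 in the DCHP livers. S100a8 had 19 counts in the controls and 145 in the DCHP livers, whereas Mmp9 had 64 in both and Elane had 60 and 58. Of the tested markers, Csf3r was at a log2 fold change of 0.80, Cxcr2 at 0.47 and Elane at -0.02, none of them called. Cxcr2 alone made up 8.5 of the summed 14.9 CPM in DCHP 5 and 5.42 of the 8.96 CPM in control 2. The summed Kupffer cell and macrophage markers lay between 227.1 and 382 CPM in the controls and between 271.3 and 765.1 CPM in the DCHP livers. DCHP 4 had the lowest macrophage sum of its group, and DCHP 5 the highest. Of the 15 macrophage markers, all tested, 14 had positive log2 fold changes, against 51.5% of all tested genes. By edgeR 0 were called, against 1.28% of all tested genes, and 4 had an unadjusted p under 0.05, against 18.9%. Itgam had the smallest p, at 1.25 ± 0.40 (SE, edgeR adjusted p = 0.124). Itgam was the 1 gene of the list called by DESeq2, against 2.62% of all tested genes, and limma-voom called 0, against 0.939%. Adipocyte, duct, stellate and endothelial, lymphocyte and erythroid lists had 0 called genes by edgeR, DESeq2 or limma-voom. Of all tested genes, these tools called 1.28%, 2.62% and 0.939%. An unadjusted edgeR p under 0.05 was found for 2 of the 8 stellate and endothelial genes, against 18.9% of all tested genes. In the other lists it was found for 0 genes. The part of these cells in the Lcn2 and Saa values was not tested.

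Immediate-early genes, which also respond to handling of tissue, summed to 2617 CPM in DCHP 1 and 952.9 CPM in DCHP 4, against 359.9 to 710.2 CPM in the other 10 livers. Of 15 tested, 5 were called higher and 0 lower, against 0.963% and 0.313% of all tested genes. Among the called genes were Klf6 at 1.03 ± 0.20 (SE, edgeR adjusted p = 0.0434), Btg2 at 2.26 ± 0.51 (0.0548), Atf3 at 1.94 ± 0.46 (0.0629) and Egr1 at 3.12 ± 0.88 (0.0928). DCHP 1, the liver with the highest sum, had Saa1 at 75.4 CPM, the lowest of the DCHP livers. Klf6 was not called without control 3, Btg2 without control 3, 4, 5 or 6, Atf3 without those 4 or DCHP 4, and Egr1 without any 1 control or DCHP 1, 4 or 5. The part of these genes' variation in the acute-phase values was not tested.

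**Figure D5:**
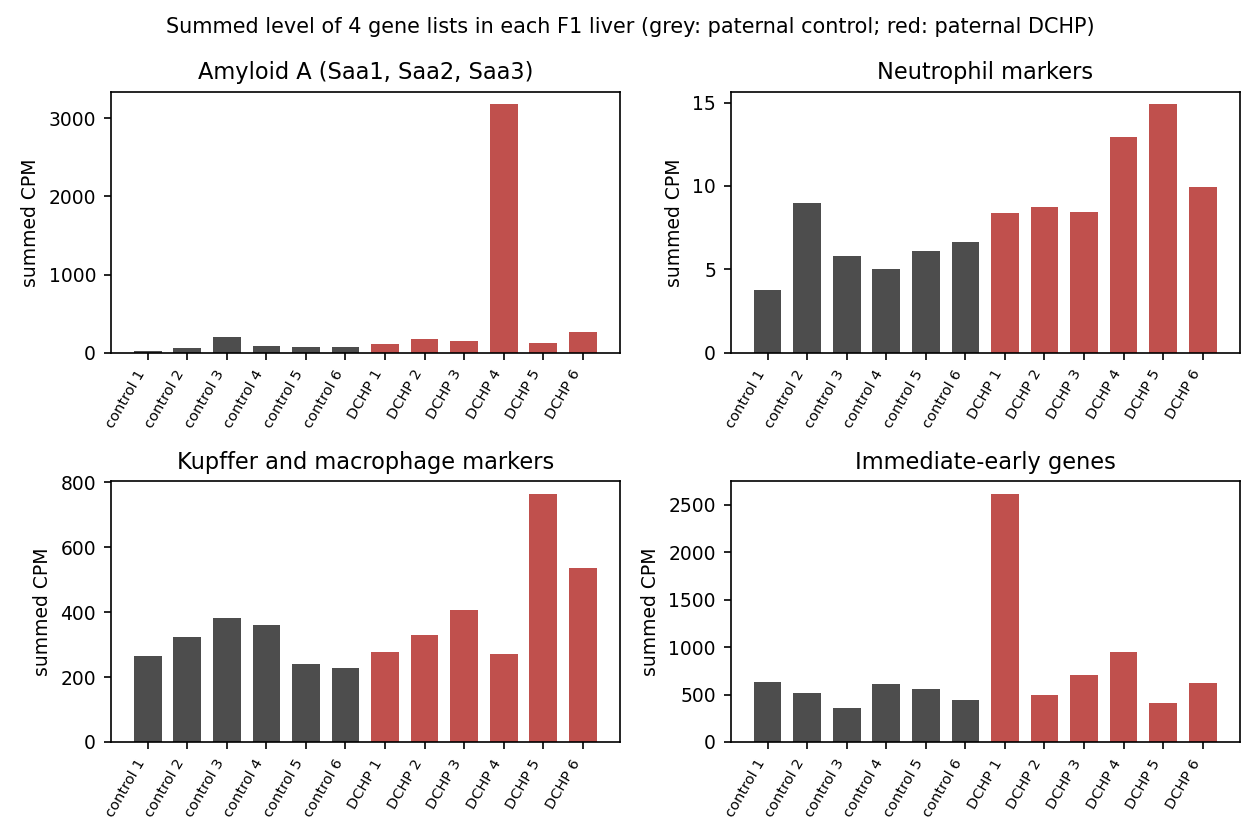
Summed CPM per liver of the amyloid A genes and of the neutrophil, macrophage and immediate-early lists, as bars from 0 for 6 paternal control livers (grey) and 6 paternal DCHP livers (red). The amyloid A sum peaks in DCHP 4 at 3176 CPM, the neutrophil and macrophage sums in DCHP 5 at 14.9 and 765.1 CPM, and the immediate-early sum in DCHP 1 at 2617 CPM.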

How the data were processed

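Liver RNA of 12 F1 males was sequenced by the authors, who deposited estimated counts, many of them not whole, with gene symbols as rows. Per the labels the build was mm10. The aligner, counter, annotation, strand setting and handling of multi-mapping reads were not given in the sources used here. Libraries were assigned to groups from their titles.

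Estimated counts were rounded. Genes were kept by filterByExpr (minimum count 10) in edgeR (version 4.0.16, R 4.3.3), scaled by TMM and compared by the quasi-likelihood test over all 12 libraries with no covariate, with the study's thresholds (FDR under 0.1, fold change above 1.5). SEs were derived from the fitted log2 fold change and the root of its F statistic. Positions and transcripts come from GENCODE M21 and promoters from RefSeq. Motifs were searched with Python (version 3.11.15), and pairs aligned with Biopython (version 1.88). DESeq2 (version 1.42.0) and limma-voom (version 3.58.1), other scalings, filters, thresholds, the replicate block and each library left out were alternatives. The fits were tested on simulated data with 200 changed genes, the same dispersion for every gene and no outlying liver. That test does not cover calls that rest on a single liver. No 2 libraries of a group were duplicates. Genes named outside the 10 were, for each list, up to 4 called genes by smallest p or otherwise the gene with the smallest p, with Saa4, Crp, Il6, Il1b, Tnf, Il6ra, Stat3 and Socs3 always named. The 10 genes, the lists, the motifs and the tests were chosen with earlier results of these data known.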

Additional observations from a re-analysis of the deposited data

Results flagged for a closer look

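Within each group of 6 livers, the highest or lowest liver was set against the range of the group for the 10 acute-phase genes, their family sums and the other named genes. Of 62 such groups, 17 held a liver whose gap to its neighbour exceeded Dixon's critical share of the range. For normally distributed values, chance gives such a gap in about 1 of 20 groups. The gaps here were taken on CPM without a log scale. The groups also shared the same livers, included sums of listed genes, and held outside genes named partly because they were called. The 17 groups therefore cannot be set against that rate and only mark livers that stood apart. DCHP 4 accounted for the high value of Saa1 (1933 CPM, with 173.4 CPM in the next liver), Saa2 (1227 against 79.7), Orm1 (709.1 against 474.2), Orm2 (28.5 against 11.2), Lcn2 (106 against 28.4), Hp (6483 against 2817) and Serpina3n (1119 against 495). It was also highest for Saa1 and Saa2 added (3151 CPM), the 3 orosomucoids added (744.8), Fgl1 (286) and Steap4 (896.2).

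Control 3 stood apart for Saa2 at 71.4 CPM, with 25.9 CPM in the next control. DCHP 3 stood apart for Il1b (6.12 CPM) and Serpina6 (151 CPM), DCHP 1 for Btg2 (350.2 CPM) and Egr1 (708.5 CPM), and DCHP 5 for Itgam (4.398 CPM).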

How the results depend on the processing

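All 10 acute-phase genes kept positive log2 fold changes in every alternative except for Orm3 as below. Of the settings for single genes of the 10, 215 kept the side of the threshold, 46 lost a call, 5 gained one and 2 turned the direction. The number of the 10 called higher was 3 as reported, 4 (Lcn2 added) when genes had to reach 1 CPM in 6 or more libraries, 1 with no filter on low counts, with limma-voom with or without quality weights or with robust dispersion, and 0 at an FDR under 0.05 or without DCHP 4 and control 1 or DCHP 4 and DCHP 6. Leaving out 1 liver gave between 0 and 4. It was 0 without any 1 control. Of all genes, 159 were called, against 326 with DESeq2, 36 at an FDR under 0.05, 479 with no fold threshold, 46 without DCHP 4 and control 1, and 7 to 233 with 1 liver left out, the lowest without control 3. DESeq2 gave no p for 12 genes, Saa1 and Saa2 among them. Orm3 turned to -0.041 without DCHP 4 and control 1 and to -0.28 without DCHP 4 and DCHP 6, and Il6ra, with -0.27 to 0.034 over single left-out livers, to 0.034 without control 5.

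Replicate numbers showed no clear pairing of the livers. Same-numbered deviations correlated at between -0.119 and 0.174, and 2 of 6 controls correlated best with their own number. With so few livers these values cannot exclude a weak pairing. With the replicate number as a block, 59 genes and 0 of the 10 were called. Other scalings moved the median log2 fold change of all genes by at most 0.02. Low levels of Orm3, Saa3 and Lcn2, unknown litters and unassigned shared reads limit what these libraries resolve.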
